A study of Mus musculus with 22 samples.

Results

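The 10 genes described here belong to the integrated stress response, the programme driven by the transcription factor ATF4: Phgdh, Psat1, Asns, Trib3, Chac1, Atf4, Atf5, Ddit3, Atf3 and Ppp1r15a. They were taken by gene symbol from a table of 57010 gene IDs, in which each of the 10 was found. All 10 were among the 16756 genes that reached 1 TPM, a length-corrected abundance scaled to the same total in every library, in 5 or more libraries. Ddit3 had 2 gene IDs. The one listed at 0 TPM in all 22 libraries (ENSMUSG00000116429) was set aside and ENSMUSG00000025408 was used.

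The libraries were polyadenylated RNA of pancreatic islets from 22 male mice, 1 mouse per library, at an age given as 5.5 weeks. The groups were wild type for MafA on the C57 background (C57 WT, 5 mice), MafA S64F heterozygotes on that background (C57 Het, 6 mice), wild type on a background labelled Mixed (Mixed WT, 5 mice) and S64F heterozygotes on it (Mixed Het, 6 mice). MAFA is a transcription factor of mature beta cells that binds insulin and other beta cell genes, and S64F replaces a serine with a phenylalanine in it. The strains that make up the Mixed background, and whether the mice of a group were littermates, are not given in the sources used here. Islets hold beta, alpha, delta and other cells, and in such bulk RNA fewer cells of a type and less RNA per cell cannot be told apart.

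In the integrated stress response, the kinases PERK, GCN2, PKR and HRI phosphorylate the alpha subunit of the translation initiation factor eIF2. General translation then falls, while the ATF4 messenger RNA, which carries small upstream reading frames, is translated more. ATF4 with its partners switches on genes for serine and asparagine synthesis, amino acid uptake and tRNA charging, and also CHOP (the product of Ddit3), ATF3, TRIB3 and CHAC1, which accompany prolonged stress. GADD34, the product of Ppp1r15a, recruits the phosphatase that removes the phosphate from eIF2 again. Beta cells make large amounts of secreted protein and depend on this control, PERK in particular. Because ATF4 is set largely by translation, the abundance of its own messenger RNA is not a measure of its activity.

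In the C57 background 6 of the 10 genes were higher in Het islets and 0 were lower at an adjusted p under 0.05 (limma, adjusted over all 16756 genes), against 38% of all genes called in either direction and 26.4% called higher. The 6 were Phgdh, Psat1, Asns, Trib3, Chac1 and Atf5. In the Mixed background 2 were higher (Phgdh and Psat1) and 2 were lower (Ddit3 and Atf5), where 44.1% of all genes were called, 30.7% higher and 13.5% lower. At an unadjusted p under 0.05 the count of lower genes in C57 was 0 as well. The median log2 difference over the 10 genes was 0.80 in C57 and 0.12 in Mixed, beside 0.08 and 0.10 over all genes tested. With 44.1% of the table moving with genotype in Mixed, 4 of 10 is a share like that of all genes.

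**Figure D1:**
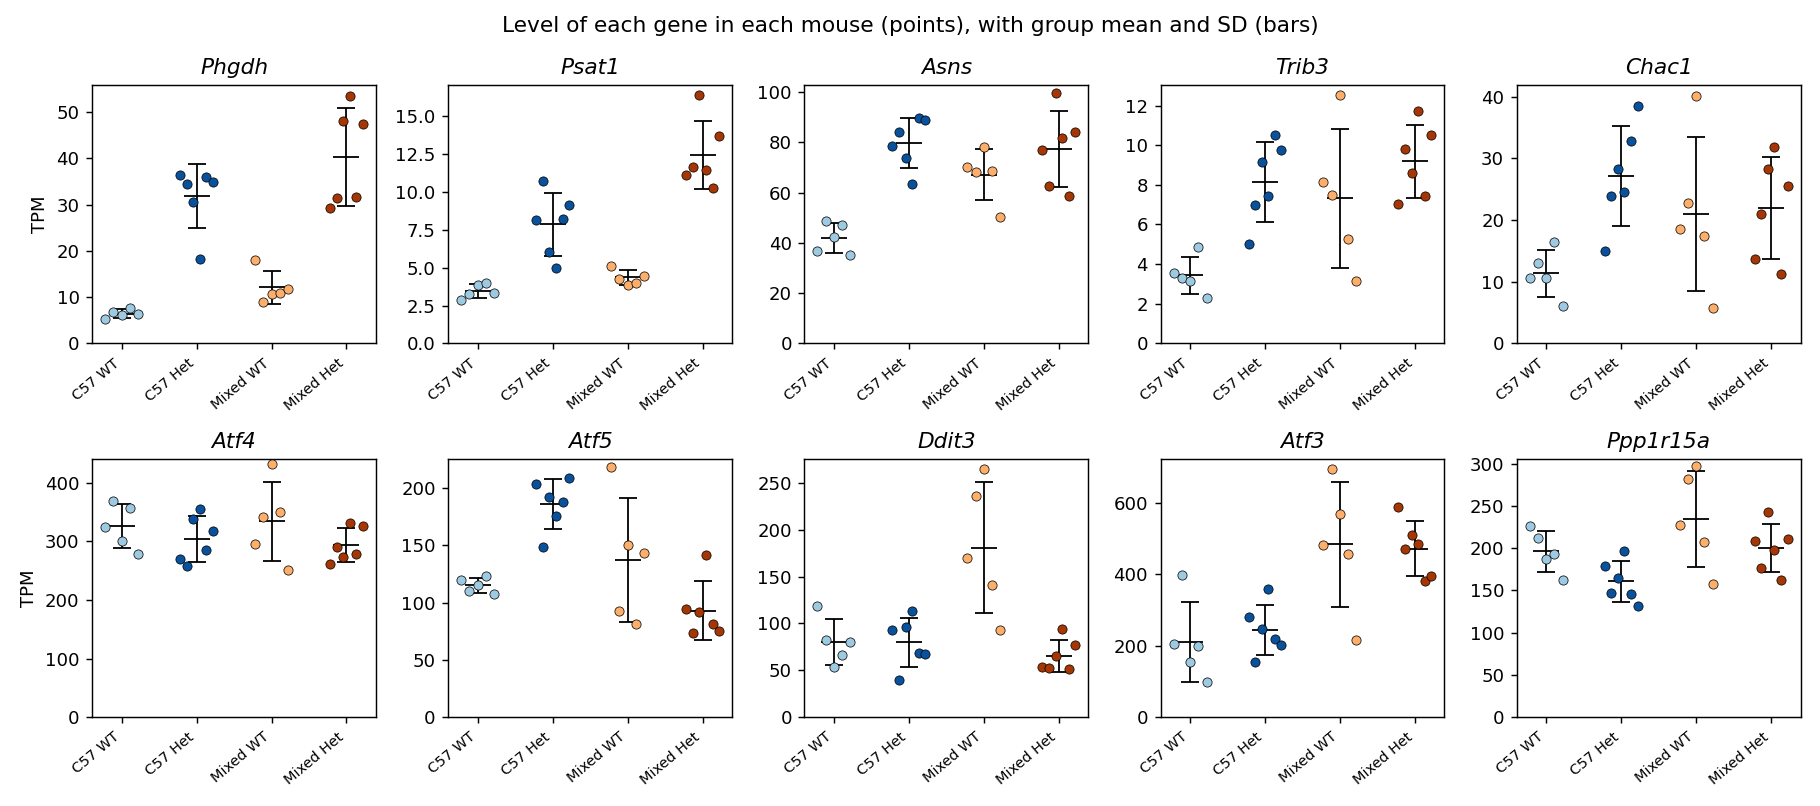
Level of each of the 10 genes in TPM (linear axis from 0) by group, with 1 point per mouse and bars for the group mean and SD. Phgdh and Psat1 lie higher in the Het mice of both backgrounds, while Asns, Trib3 and Atf5 are separated by genotype in C57 alone.

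The deposited values were checked first on the altered gene. Mafa averaged 441 ± 87.6 TPM in C57 WT (SD, n = 5) and 117 ± 23.2 in C57 Het (n = 6), and 598 ± 143 and 152 ± 37.1 in the Mixed groups, and the S64F change itself cannot be read from abundances. The 10 beta cell markers include Mafa itself. They summed to 371599 to 450974 TPM in C57 WT, 325251 to 380648 in C57 Het, 403277 to 480912 in Mixed WT and 251916 to 343758 in Mixed Het. In C57 Het 1 was called higher and 2 lower, and in Mixed Het 7 were lower, Mafa being among the lower ones in each. The summed alpha cell markers (Gcg, Irx2 and Ttr) stood higher in Het than in WT with no overlap, at 71310 to 117362 against 19043 to 57360 TPM in C57 and 65336 to 107151 against 15807 to 27517 TPM in Mixed, and 3 of 3 were called higher in each background. The 10 markers of acinar cells, the exocrine cells around the islets, summed to 202 to 383 TPM in C57 WT, 256 to 1590 in C57 Het, 174 to 835 in Mixed WT and 607 to 1160 in Mixed Het, with 8 of the 9 tested called higher in C57 Het and 2 in Mixed Het. Delta cell markers were called higher in Het for 3 of 3 in each background, their sums being 5538 to 8887 in C57 WT, 10006 to 13913 in C57 Het, 7645 to 15966 in Mixed WT and 14667 to 32003 TPM in Mixed Het. Immune cell markers went in opposite directions, with 3 of 7 tested lower in C57 Het (214 to 273 TPM in WT, 123 to 186 in Het) and 6 of 7 higher in Mixed Het (102 to 142 in WT, 160 to 342 in Het), and the interaction passed for 4 of 7. Mesenchymal markers were called in Mixed alone, 5 of 6 higher (31.4 to 62.8 TPM in WT, 58.0 to 367 in Het, beside 34.4 to 89.9 and 39.8 to 64.9 in C57). Of 6 ductal markers 2 were higher in C57 Het (158 to 183 TPM in WT, 201 to 314 in Het), and 5 were higher and 1 lower in Mixed Het (141 to 214 in WT, 195 to 570 in Het). Of 7 endothelial markers 4 were lower in C57 Het (323 to 802 TPM in WT, 309 to 380 in Het) and 0 were called in Mixed (393 to 460 in WT, 360 to 658 in Het). Beside these counts, 26.4% of all genes were called higher and 11.6% lower in C57 Het, and 30.7% and 13.5% in Mixed Het. The interaction passed for 7.36% of all genes. The acinar count in Mixed and the ductal count in C57 are thus near the shares of all genes. None of these markers was at 0 throughout a group. Scores of the alpha and acinar lists were tried as covariates, and the part of the delta, immune, mesenchymal, ductal and endothelial lists in the results below was not tested. The share of TPM from mitochondrially encoded genes was 4.27% to 9.76% and 4.37% to 9.76% in the WT groups, and 3.86% to 4.39% and 2.80% to 4.06% in the Het groups of C57 and Mixed.

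The promoters of the genes are shown first, because the letters of the element that ATF4 binds were found in some of them and not in others. RefSeq windows on GRCm38.p6, from 250 bases before to 50 after the start, were found for all 10 genes. The window was searched on both strands for TGATGNAA, the core of the C/EBP-ATF response element, which ATF4 binds with a C/EBP partner. It was present for 4 of the 10 genes (Asns, Trib3, Chac1 and Atf3) and in 3.97% of the 32851 promoters of that table. A variant differing by 1 letter, TGGTGCAA, chosen after the sequences had been read, was present for Trib3 and Psat1 and in 0.536% of all promoters. The stretches before the start are given 5′ to 3′ on the strand of the gene, with the matched letters in capitals.
Asns (chr6:7693210-7693262, minus strand): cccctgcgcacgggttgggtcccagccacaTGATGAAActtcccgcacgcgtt
Chac1 (chr2:119351019-119351086, plus strand): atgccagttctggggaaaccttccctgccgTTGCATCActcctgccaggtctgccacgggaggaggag
Atf3 (chr1:191183406-191183473, minus strand): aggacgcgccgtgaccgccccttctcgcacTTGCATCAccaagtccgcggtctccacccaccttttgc
Trib3 (chr2:152344061-152344123, minus strand): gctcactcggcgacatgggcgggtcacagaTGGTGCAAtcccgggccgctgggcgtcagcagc
Psat1 (chr19:15925158-15925225, minus strand): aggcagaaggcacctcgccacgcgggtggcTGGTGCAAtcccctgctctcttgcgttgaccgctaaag
In Asns and Trib3 the match begins 23 and 33 bases before the start, and in Atf3, Psat1 and Chac1 it begins 110, 136 and 193 bases before it. In Chac1 and Atf3 the capitals read as the reverse complement of the element. The Trib3 TGATGNAA match lies after the start and is not printed, and the bases that follow the Trib3 start were not found near the start of a GENCODE M21 transcript of the gene. A match in letters is a description of the sequence and not evidence of binding.

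The site that large MAF proteins such as MAFA bind contains the letters TGCTGAC. These letters were found on either strand for 4 of the 10 genes (Asns, Trib3, Phgdh and Ppp1r15a) and in 4.67% of all promoters. Phgdh held this match and no TGATGNAA, and Ppp1r15a held it overlapping the cyclic AMP response element TGACGTCA, found in 1.79% of all promoters. These matches too describe the sequence, and binding was not tested.
Phgdh (chr3:98339981-98340047, minus strand): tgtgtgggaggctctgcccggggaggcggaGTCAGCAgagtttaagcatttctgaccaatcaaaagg
Ppp1r15a (chr7:45526269-45526310, minus strand): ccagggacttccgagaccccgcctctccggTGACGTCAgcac
The Ppp1r15a stretch shows the cyclic AMP response element in capitals, and the Phgdh stretch shows the reverse complement of TGCTGAC. Atf4, Atf5 and Ddit3 held none of the letters searched in these windows.

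The enzymes of serine synthesis, Phgdh and Psat1, were higher in Het islets of both backgrounds, and no other of the 10 genes was. Phgdh encodes phosphoglycerate dehydrogenase, which commits a glycolytic intermediate to serine. Its levels in the 5 C57 WT mice were 5.18, 6.68, 6.11, 7.68 and 6.41 TPM, and the lowest, median and highest of the 6 C57 Het mice were 18.3, 34.7 and 36.3 TPM. In the Mixed background the WT mice had 18.1, 9.02, 10.6, 10.9 and 11.8 TPM, and the Het mice had 29.3, 39.6 and 53.5 TPM as lowest, median and highest. Every Het mouse lay above every WT mouse of its background, as was so for 15.9% of all genes in C57 and 17.9% in Mixed. The difference on the log2(TPM + 1) scale was 2.12 (adjusted p = 4.6e-08, SE 0.19) in C57 and 1.65 (adjusted p = 5.8e-07, SE 0.19) in Mixed. Phgdh was also higher in Mixed WT than in C57 WT, by 0.79 (adjusted p = 0.0109, SE 0.20), again without overlap.

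Psat1 encodes phosphoserine aminotransferase, the next enzyme of the same route. Its 5 C57 WT mice had 2.84, 3.26, 3.85, 4.02 and 3.35 TPM, and the C57 Het mice had 4.97, 8.16 and 10.7 TPM as lowest, median and highest. The Mixed WT mice had 5.13, 4.28, 3.86, 4.02 and 4.47 TPM, and the Mixed Het mice had 10.2, 11.6 and 16.4 TPM. The genotypes were again apart in both backgrounds, with differences of 0.96 (adjusted p = 3.5e-05, SE 0.14) and 1.32 (adjusted p = 3.2e-07, SE 0.14). Both enzymes were called higher in both backgrounds, which 16.9% of all genes were. Their calls held in each of the 36 alternatives in either background, including the alpha cell score as a covariate, where Phgdh differed by 2.51 (adjusted p = 5.8e-05) and 2.36 (adjusted p = 0.0221) and Psat1 by 1.15 (adjusted p = 0.0074) and 1.66 (adjusted p = 0.0376). Psph, whose product completes serine from phosphoserine, was higher too, by 0.45 (adjusted p = 0.00143) in C57 and 0.47 (adjusted p = 0.00081) in Mixed.

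Asns, asparagine synthetase, is a classic target of ATF4 under amino acid shortage. Its levels were 36.9, 48.7, 42.2, 46.9 and 35.3 TPM in C57 WT and 63.3, 81.4 and 89.9 (lowest, median, highest) in C57 Het. In Mixed they were 70.4, 68.2, 78.01, 68.5 and 50.4 TPM in WT and 58.6, 79.4 and 99.7 in Het. The C57 WT mice were thus the low group, and the other groups shared a common range. Asns differed by 0.91 (adjusted p = 2.5e-05, SE 0.13) in C57 and by 0.19 (adjusted p = 0.244, SE 0.13) in Mixed. Between the WT groups it was higher in Mixed by 0.66 (adjusted p = 0.00315, SE 0.14), with no overlap, where 2.91% of all genes were separate in that direction.

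Trib3, a pseudokinase that binds AKT and restrains ATF4 and CHOP, had 3.54, 3.30, 3.14, 4.87 and 2.29 TPM in the C57 WT mice and 5.01, 8.30 and 10.5 TPM as lowest, median and highest in C57 Het. The Mixed WT mice had 8.15, 7.50, 12.5, 5.26 and 3.16 TPM and the Mixed Het mice 7.02, 9.20 and 11.7 TPM. The C57 groups were separate and the Mixed groups overlapped. Trib3 was higher in C57 Het by 1.04 (adjusted p = 0.00132, SE 0.23), and the Mixed difference was 0.38 (adjusted p = 0.182, SE 0.23), which passed only without Mixed WT mouse 3 (0.58, adjusted p = 0.035) among the alternatives. The C57 call ended when the acinar marker score was a covariate, at 0.75 (adjusted p = 0.0544).

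Chac1 encodes an enzyme that breaks down glutathione and follows ATF4, ATF3 and CHOP. The C57 WT mice had 10.6, 12.97, 10.6, 16.5 and 6.04 TPM and the C57 Het mice had 14.98, 26.4 and 38.6 TPM as lowest, median and highest. In Mixed the WT mice had 18.6, 22.7, 40.2, 17.4 and 5.71 TPM and the Het mice 11.2, 23.3 and 31.9 TPM. The groups overlapped in both backgrounds. Chac1 was higher in C57 Het by 1.20 (adjusted p = 0.0104, SE 0.35), and in Mixed the difference was 0.20 (adjusted p = 0.676, SE 0.35). The C57 call was lost with the acinar score (0.93, adjusted p = 0.137), the mitochondrial share (1.13, adjusted p = 0.0721) and the alpha cell score (1.70, adjusted p = 0.107) as covariates, the difference being larger with the last and its standard error too.

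The messenger RNA of Atf4 itself did not pass the test in any of the 5 contrasts. Its mean was 326 ± 37.6 TPM in C57 WT (SD, n = 5), 304 ± 38.9 in C57 Het (n = 6), 334 ± 67.7 in Mixed WT (n = 5) and 294 ± 28.6 in Mixed Het (n = 6). The log2 differences between genotypes were -0.10 (adjusted p = 0.51, SE 0.12) in C57 and -0.17 (adjusted p = 0.256, SE 0.12) in Mixed. All 6 Mixed Het mice lay below the Mixed WT mean, and after quantile normalization this difference passed, at -0.36 (adjusted p = 0.0137). Its coefficient of variation between mice was 9.75% to 20.3% by group, against 29.9% to 59.7% for Chac1, and the amount of ATF4 protein was not measured here.

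Atf5, a relative of ATF4 whose translation is regulated in the same way and which is abundant in beta cells, went in opposite directions in the backgrounds. The C57 WT mice had 119.9, 110.3, 115, 123 and 107 TPM and the C57 Het mice 149, 190.0 and 209 TPM as lowest, median and highest, with no overlap. The Mixed WT mice had 218, 92.7, 150.2, 81.7 and 143 TPM, a wide spread, and the Mixed Het mice 73.8, 86.4 and 142 TPM. Atf5 was higher in C57 Het by 0.68 (adjusted p = 0.00773, SE 0.19) and lower in Mixed Het, at -0.50 (adjusted p = 0.0359, SE 0.19). Between the Het groups it was lower in Mixed, at -1.02 (adjusted p = 0.000442, SE 0.18). Every Mixed Het mouse lay below every C57 Het mouse, as was so for 3.28% of all genes. The C57 call was lost with the acinar score (0.45, adjusted p = 0.168), the mitochondrial share (0.56, adjusted p = 0.0915) or the alpha cell score (0.83, adjusted p = 0.159) as covariates.

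The call of lower Atf5 in Mixed Het was lost in 11 of 36 alternatives, with the sign the same in all of them. It was -0.44 (adjusted p = 0.148) with the immediate early score, -0.24 (adjusted p = 0.879) with the alpha cell score and -0.50 (adjusted p = 0.107) with the Mixed mice fitted alone. The adjusted p was 0.0759 with no filter on low values, and the call also ended at a threshold of 0.01. Without Mixed WT mouse 1, the highest of its group, the difference was -0.31 (adjusted p = 0.14), and without Mixed WT mouse 3 or 5 it was -0.45 (adjusted p = 0.0882) or -0.47 (adjusted p = 0.0715). Leaving out Mixed Het mouse 2, 5 or 6 gave -0.44 (adjusted p = 0.0777), -0.47 (adjusted p = 0.0678) and -0.45 (adjusted p = 0.0763). In the GENCODE M21 annotation Atf5 shares 571 bases with Nup62 and 272 bases with Il4i1 on the opposite strand, and whether the counting used strand is not given in the sources used here.

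Ddit3 encodes CHOP, the factor most tied to death of stressed beta cells. The C57 groups had nearly the same level, 118, 81.98, 52.99, 66.4 and 80.05 TPM in WT and 39.1, 80.9 and 114 TPM (lowest, median, highest) in Het. The Mixed WT mice had 170.0, 236, 264, 141 and 92.8 TPM and the Mixed Het mice 51.6, 58.8 and 94.2 TPM. Mixed WT was thus the high group, with 4 of its 5 mice above every mouse of both Het groups, and the ranges of the Mixed genotypes overlapped through the fifth. The difference between genotypes was -0.032 (adjusted p = 0.94, SE 0.27) in C57, a value that changed sign in several alternatives, and -1.39 (adjusted p = 0.00028, SE 0.27) in Mixed. Ddit3 was higher in Mixed WT than in C57 WT by 1.12 (adjusted p = 0.012, SE 0.28). Its annotation shares 68 bases with the methionyl-tRNA synthetase gene on the opposite strand, which rose in Het islets of both backgrounds.

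The 8 immediate early genes fixed as a sign of handling (Fos, Fosb, Egr1, Junb, Jun, Ier2, Nr4a1 and Dusp1) were followed beside Ddit3 and Atf3. They summed to 4771 to 10053 TPM in C57 WT, 5390 to 8295 in C57 Het, 6443 to 13328 in Mixed WT and 4850 to 7735 in Mixed Het. In Mixed Het 0 of 8 were called higher and 3 lower, beside 30.7% and 13.5% of all genes. With their score as a covariate the Ddit3 difference in Mixed was -0.91 (adjusted p = 0.0137), and with the alpha cell score it was -1.55 (adjusted p = 0.375). The WT difference between backgrounds was 0.82 (adjusted p = 0.05004) with the immediate early score and 1.20 (adjusted p = 0.214) with the alpha cell score.

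Atf3, an immediate and stress-induced repressor that CHOP and ATF4 both raise, differed by background and not detectably by genotype. The C57 WT mice had 206, 397, 154, 199.6 and 98.98 TPM and the Mixed WT mice 482, 695, 568, 458 and 216 TPM. The lowest, median and highest were 155, 234 and 358 TPM in C57 Het and 380.4, 478 and 588 TPM in Mixed Het. Every Mixed Het mouse was above every C57 Het mouse, as was so for 6.56% of all genes, and the WT groups overlapped. Atf3 was higher in Mixed by 1.24 (adjusted p = 0.00945, SE 0.30) among WT and 0.98 (adjusted p = 0.0141, SE 0.27) among Het mice. The genotype differences were 0.31 (adjusted p = 0.421, SE 0.29) in C57 and 0.047 (adjusted p = 0.909, SE 0.29) in Mixed, the latter changing sign with the scaling. With the immediate early score as a covariate Atf3 passed the genotype test, at 0.62 (adjusted p = 0.0022) and 0.86 (adjusted p = 0.000634), and the WT difference between backgrounds was 1.24 (adjusted p = 0.0784) when only the WT mice were fitted.

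Ppp1r15a, the feedback gene GADD34, was not called in any contrast before the alternatives were tried. Its means were 196 ± 24.4 TPM in C57 WT (SD, n = 5), 161 ± 24.2 in C57 Het (n = 6), 235 ± 57.02 in Mixed WT (n = 5) and 199.9 ± 28.5 in Mixed Het (n = 6). The genotype differences were -0.29 (adjusted p = 0.111, SE 0.14) in C57 and -0.21 (adjusted p = 0.249, SE 0.14) in Mixed. The C57 difference passed, as lower in Het, with median-of-ratios scaling (-0.38, adjusted p = 0.0404), quantile normalization (-0.39, adjusted p = 0.035), a total without the most abundant genes (-0.40, adjusted p = 0.0257) and sample weights (-0.33, adjusted p = 0.044). The Mixed difference passed with quantile normalization (-0.38, adjusted p = 0.0371) and without Mixed WT mouse 5 (-0.34, adjusted p = 0.0372). Between the Het groups Ppp1r15a differed by 0.31 (adjusted p = 0.111, SE 0.14), higher in Mixed. This passed in 2 of 36 alternatives. Ppp1r15a shares 717 annotated bases with Tulp2 on the opposite strand.

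**Figure D2:**
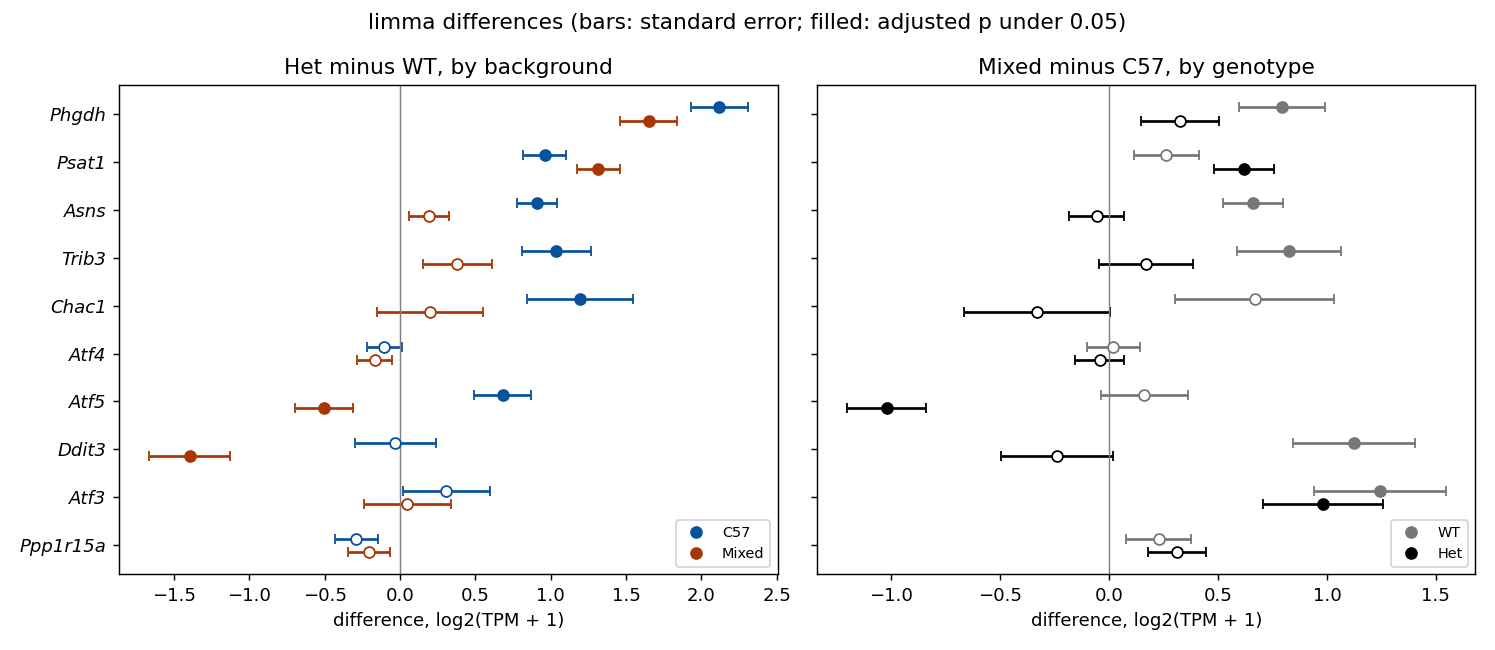
Difference of each of the 10 genes on the log2(TPM + 1) scale, Het minus WT by background (left) and Mixed minus C57 by genotype (right), with the standard error as bars and filled points for an adjusted p under 0.05. Filled points on the left lie above 0 for Phgdh and Psat1 in both backgrounds and for Asns, Trib3, Chac1 and Atf5 in C57, and below 0 for Ddit3 and Atf5 in Mixed.

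Whether the genotype acted unequally in the 2 backgrounds was tested by the interaction, the Mixed difference minus the C57 difference. It passed for 3 of the 10 genes, all with a negative sign, where 7.36% of all genes passed, 4.62% with a positive and 2.74% with a negative sign. These were Ddit3 at -1.36 (adjusted p = 0.034, SE 0.38), Atf5 at -1.18 (adjusted p = 0.0124, SE 0.27) and Asns at -0.72 (adjusted p = 0.0248, SE 0.19). For Phgdh and Psat1 the interaction was -0.47 (adjusted p = 0.269, SE 0.27) and 0.36 (adjusted p = 0.271, SE 0.20), and for Trib3 and Chac1 it was -0.66 (adjusted p = 0.199, SE 0.32) and -0.998 (adjusted p = 0.206, SE 0.50). The median over the 10 genes was -0.56, beside 0.02 over all genes tested. The groups behind the 3 calls were unlike each other: C57 WT was low for Asns, Mixed WT was high for Ddit3, and for Atf5 C57 Het was high and Mixed Het low.

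The Ddit3 interaction was the least steady of the 3, being lost in 14 of 35 alternatives, with 10 of these each leaving out 1 mouse. Its value was -1.23 and -1.38 without C57 WT mouse 3 or 5, -1.30, -1.29 and -1.25 without C57 Het mouse 1, 3 or 4, -1.36, -1.24 and -1.20 without Mixed WT mouse 1, 2 or 3, and -1.31 and -1.30 without Mixed Het mouse 2 or 5, with adjusted p between 0.0505 and 0.0668. The Asns interaction was -0.63 (adjusted p = 0.0584) with the immediate early score, -0.54 (adjusted p = 0.214) with the alpha cell score, and had an adjusted p of 0.055 with no filter on low values. With the alpha cell score the Atf5 interaction was -1.06 (adjusted p = 0.13) and that of Ddit3 -1.43 (adjusted p = 0.147), so that 0 of the 3 were called by limma, with 3 of the 10 genes at an unadjusted p under 0.05. Without Mixed WT mouse 5, Trib3 (-0.88, adjusted p = 0.0483) and Chac1 (-1.37, adjusted p = 0.0396) passed as well, which took the count from 3 to 5.

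Among the WT mice alone, 5 of the 10 genes were higher in Mixed than in C57 (Asns, Atf3, Ddit3, Phgdh and Trib3) and 0 were lower, also at an unadjusted p under 0.05, where 11.3% of all genes were called, 6.3% higher and 4.99% lower. The median over the 10 was 0.66 against 0.01 over all genes tested. The Trib3 call, 0.83 (adjusted p = 0.0269, SE 0.24), ended in 11 of 36 alternatives. It was 0.81 (adjusted p = 0.0545) and 0.73 (adjusted p = 0.0737) without C57 WT mouse 3 or 5, and 0.77 (adjusted p = 0.0637), 0.79 (adjusted p = 0.0612) and 0.62 (adjusted p = 0.0857) without Mixed WT mouse 1, 2 or 3. Chac1 passed only without Mixed WT mouse 5, at 1.04 (adjusted p = 0.0297). Among the Het mice 2 genes were higher in Mixed (Atf3 and Psat1) and Atf5 was lower, where 20.5% of all genes were called, 13.3% higher and 7.13% lower. Psat1 differed there by 0.62 (adjusted p = 0.00284, SE 0.14), with overlapping values. With the alpha cell score as a covariate limma called 0 of the 10 between the WT groups, with 3 at an unadjusted p under 0.05. Asns was then 0.47 (adjusted p = 0.297), Phgdh 0.44 (adjusted p = 0.464), Trib3 0.52 (adjusted p = 0.486) and Atf3 1.57 (adjusted p = 0.115). The genotype and background contrasts share their mice, so the WT group of one enters the other.

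Some of the genes also varied together from mouse to mouse inside the groups. With each group's mean removed, 11 of the 45 pairs among the 10 genes were correlated over the 22 mice at an adjusted p under 0.05 (permutation within groups, 100000 resamples, two-sided), and all 11 were positive. Over all 45 pairs 36 had a positive r, and Atf5 was in none of the 11. Psat1 and Phgdh each had a negative r with Ddit3, Atf3, Atf4 and Ppp1r15a, and none of these pairs passed. The most negative were Psat1 with Ddit3 (r = -0.504, adjusted permutation p = 0.0809) and with Atf4 (r = -0.426, adjusted permutation p = 0.105). Atf4, which passed in no contrast of the values as deposited, was among them with Chac1 (r = 0.761, adjusted permutation p = 0.0063), Trib3 (r = 0.727, adjusted permutation p = 0.0163), Ddit3 (r = 0.672, adjusted permutation p = 0.0182) and Atf3 (r = 0.6246, adjusted permutation p = 0.0349). By Spearman's rho Atf4 passed with Chac1 (0.630), Trib3 (0.604) and Ddit3 (0.617), and not with Atf3 (0.476, adjusted permutation p = 0.154). Without the 2 mice farthest from the median of the gene paired with Atf4, r was 0.575, 0.499, 0.519 and 0.424 for Chac1, Trib3, Ddit3 and Atf3. Trib3 and Chac1 gave the highest value, with Pearson's r = 0.922 (permutation p = 2e-05, adjusted p = 0.0009) and Spearman's rho = 0.899 (permutation p = 2e-05). Atf3 and Ppp1r15a gave r = 0.770 (permutation p = 8e-05, adjusted p = 0.0018) and rho = 0.828 (permutation p = 2e-05). Psat1 and Phgdh gave r = 0.707 (permutation p = 0.00054, adjusted p = 0.0063) and rho = 0.678 (permutation p = 0.0009). Without the 2 mice farthest from the median of the first gene of the pair, r was 0.850, 0.645 and 0.627. Values of 1 mouse share a library and a total, so anything that moves a whole library enters these correlations. The share of pairs that would pass among all genes was not computed. Whether the 11 pairs and the 36 positive values are particular to these genes was therefore not tested.

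**Figure D3:**
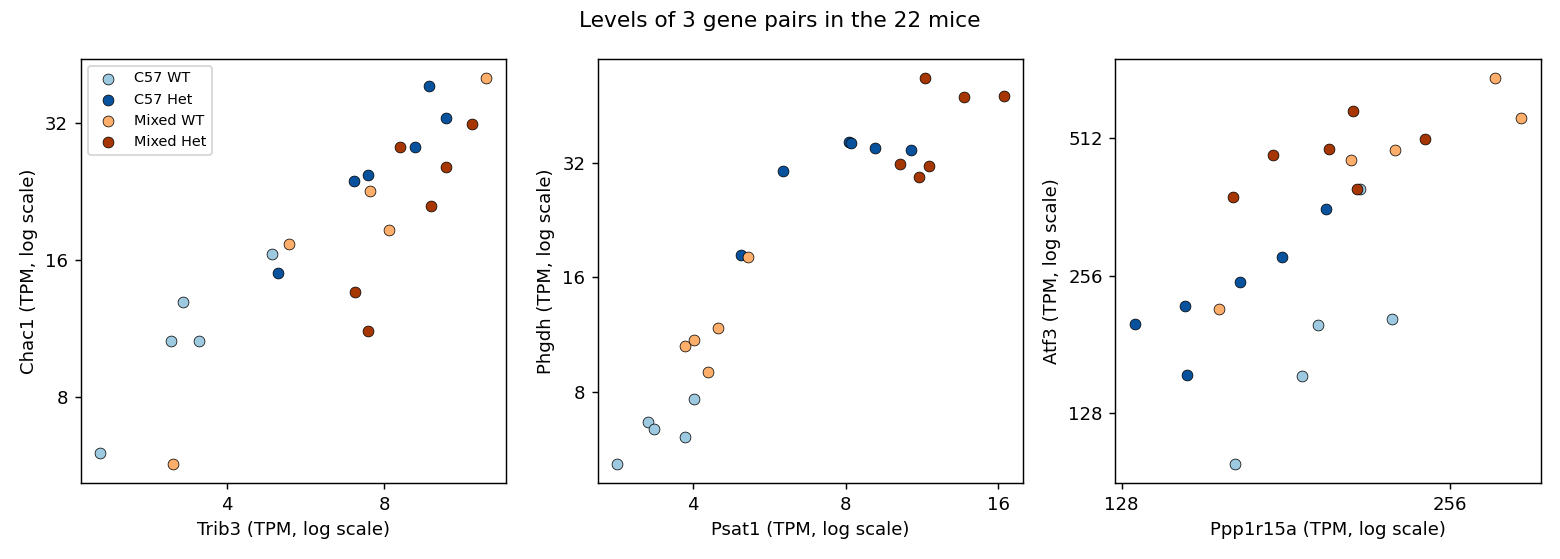
Levels in TPM (log axes) of Chac1 against Trib3, Phgdh against Psat1 and Atf3 against Ppp1r15a, with 1 point per mouse coloured by group. Within the groups the points rise together, with r = 0.922, 0.707 and 0.770 once each group's mean is removed.

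Some mice stood at the end of their group for most of the genes. C57 WT mouse 5 was the lowest of its group for 7 of the 10 genes and Mixed WT mouse 5 for 7, and these mice had the lowest immediate early sums of their groups, 4771 and 6443 TPM. Mixed Het mouse 5 was lowest for 6 genes, also with the lowest immediate early sum, 4850 TPM, and Mixed Het mouse 4 was highest for 6, with a sum of 6858 TPM inside its group's range. Mixed WT mouse 3 was highest for 6 genes and had a sum of 11689 TPM, below that of Mixed WT mouse 2. In C57 Het, mouse 6 had the lowest sum, 5390 TPM, and was lowest for 1 gene. Such ranks were not computed over all genes, so they are not known to be particular to these 10. C57 WT mouse 5 also had the highest mitochondrial share (9.76%), endothelial sum (802 TPM) and mesenchymal sum (89.9 TPM) of its group. C57 WT mouse 5 and Mixed WT mouse 5 had the highest beta cell sums of their groups, 450974 and 480912 TPM. The part of handling or of cell composition in these ranks was not tested.

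The genes whose levels over the 22 libraries were most like those of Asns were Sars (r = 0.944), Aldh1l2 (r = 0.910), Slc7a1 (r = 0.902), Tmx4 (r = 0.894) and Lbh (r = 0.893). Sars is the seryl-tRNA synthetase, Aldh1l2 a mitochondrial folate enzyme and Slc7a1 a cationic amino acid transporter, and all 3 stand on the pathway lists used below. For Ddit3 they were Bhlhe40 (r = 0.849), Dpm1 (r = 0.830), Hic2 (r = 0.827), Cfap20 (r = 0.816) and ENSMUSG00000120402 (r = 0.812), none of them on a list. These Pearson correlations of log2(TPM + 1) include the differences between groups and are given as a description of likeness.

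The wider pathway was followed in 6 lists of 72 genes, 69 of which passed the filter. Cth, Slc7a11 and Fgf21 did not pass, with no TPM above 0.980, 0.417 and 1.36. In C57 Het 42 of the 69 were higher and 3 lower, and in Mixed Het 30 were higher and 8 lower, beside 26.4% and 11.6%, and 30.7% and 13.5%, of all genes. The interaction passed for 3 of the 69, Slc7a5, Aars and Ero1a, all with a negative sign. Of all genes 7.36% passed the interaction, 2.74% with a negative sign, so the count is no sign of a trait of these lists.

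Of the 12 aminoacyl-tRNA synthetases, which charge tRNAs with amino acids, 12 were higher in C57 Het (median 0.39) and 7 in Mixed Het (median 0.30), and 0 were lower in either. Over all genes 26.4% were higher and 11.6% lower in C57, and 30.7% and 13.5% in Mixed. Mars1 rose by 0.80 and 0.70 in C57 and Mixed, Eprs by 0.48 and 0.38, and Gars by 0.43 and 0.35. Sars rose in C57 (0.38, adjusted p = 0.000249) and differed by 0.079 (adjusted p = 0.371) in Mixed, and its C57 call was lost with the alpha cell score, at 0.39 (adjusted p = 0.0642), where the size was kept and the standard error grew. The Aars interaction was -0.64 (adjusted p = 0.0332), from 0.55 (adjusted p = 0.00172) in C57 and -0.085 (adjusted p = 0.612) in Mixed. It was lost in 14 of 35 alternatives. These included leaving out any 1 of C57 WT mouse 5, C57 Het mice 1, 5 and 6, Mixed WT mice 1, 2, 3 and 4 and Mixed Het mice 2 and 5 (-0.64 to -0.54, adjusted p from 0.0517 to 0.0632).

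Of 10 amino acid and one-carbon enzymes, 8 rose and 1 fell in C57 Het, and 7 rose and 1 fell in Mixed Het. Over all genes 26.4% were higher and 11.6% lower in C57, and 30.7% and 13.5% in Mixed. The one that fell in each was Cbs, which makes cystathionine, at -0.46 (adjusted p = 0.00824) and -0.67 (adjusted p = 0.000264). Got1, the cytosolic aspartate aminotransferase, rose by 0.52 and 0.57, and Pycr1, the last enzyme of proline synthesis, by 0.51 and 0.66. The mitochondrial folate enzymes Mthfd2 and Aldh1l2 differed by 0.85 (adjusted p = 0.000169) and 1.73 (adjusted p = 4.8e-05) in C57 and by 0.41 (adjusted p = 0.0265) and 0.61 (adjusted p = 0.0691) in Mixed. The Mixed call of Mthfd2 was lost in 14 of 36 alternatives. These included leaving out any 1 of Mixed WT mouse 4 and Mixed Het mice 3, 4 and 6 (0.26 to 0.38, adjusted p from 0.0515 to 0.114). Aldh1l2 passed in Mixed in 4 of 36 alternatives. These included leaving out any 1 of Mixed WT mouse 1 and Mixed Het mice 2 and 5 (0.72 to 0.81, adjusted p from 0.0168 to 0.0406).

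Of 8 amino acid transporters, 4 rose and 0 fell in C57 Het, and 3 rose and 1 fell in Mixed Het. Over all genes 26.4% were higher and 11.6% lower in C57, and 30.7% and 13.5% in Mixed. The Mixed counts of this list are thus near the shares of all genes. The product of Slc7a5 pairs with that of Slc3a2 to import leucine and other large amino acids. Slc7a5 rose in C57 (0.65, adjusted p = 8.2e-05) and fell in Mixed (-0.29, adjusted p = 0.03), and its interaction was -0.94 (adjusted p = 0.00133). The call of the fall in Mixed was lost in 10 of 36 alternatives. These included leaving out any 1 of Mixed WT mice 1, 2 and 3 and Mixed Het mice 2 and 5 (-0.27 to -0.23, adjusted p from 0.0589 to 0.0825). Slc3a2 differed by 0.57 (adjusted p = 6.2e-05) in C57 and 0.17 (adjusted p = 0.123) in Mixed. Slc7a1 rose by 0.76 and 0.43, and Slc1a4, a carrier of serine and alanine, by 0.85 (adjusted p = 0.000328) in C57, with 0.31 (adjusted p = 0.118) in Mixed, which passed without Mixed WT mouse 1 (0.46, adjusted p = 0.0131).

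Of the 11 genes for eIF2 kinases and the eIF2 machinery, 6 rose and 0 fell in C57 Het, and 3 rose and 1 fell in Mixed Het. Over all genes 26.4% were higher and 11.6% lower in C57, and 30.7% and 13.5% in Mixed. The Mixed counts of this list are thus shares like those of all genes. Eif2s1, the alpha subunit itself, rose by 0.57 and 0.60. Eif2b1 and Eif2b5, subunits of the exchange factor that phosphorylated eIF2 blocks, rose by 0.39 and 0.28 in Mixed. In C57 Eif2b1 rose by 0.25 (adjusted p = 0.0121), a call lost in 7 of 36 alternatives. Eif2b5 rose there by 0.17 (adjusted p = 0.0481), a call lost in 27 of 36 alternatives. The 27 included leaving out any 1 of C57 WT mice 1, 3 and 5, C57 Het mice 1, 2, 4, 5 and 6, Mixed WT mice 1, 2, 3 and 5 and Mixed Het mice 2, 3, 4, 5 and 6 (0.12 to 0.18, adjusted p from 0.0509 to 0.17). The kinases PERK (Eif2ak3), GCN2 (Eif2ak4) and HRI (Eif2ak1) rose in C57, by 0.40 (adjusted p = 0.0153), 0.35 (adjusted p = 0.016) and 0.32 (adjusted p = 0.00117). The PERK and GCN2 calls were lost in 5 and 6 of 36 alternatives. Among these was the fit without C57 WT mouse 5, at 0.27 (adjusted p = 0.0623) and 0.24 (adjusted p = 0.0646). In Mixed the same kinases differed by 0.24 (adjusted p = 0.128), 0.16 (adjusted p = 0.256) and 0.017 (adjusted p = 0.862). Eif2b2 was the 1 gene that fell in Mixed, at -0.29 (adjusted p = 0.0343), a call lost in 13 of 36 alternatives. These included leaving out any 1 of Mixed WT mice 2, 3 and 4 and Mixed Het mice 4, 5 and 6 (-0.28 to -0.19, adjusted p from 0.0541 to 0.139).

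Of 14 other ATF4 or CHOP targets, 5 rose and 2 fell in C57 Het, and 6 rose and 3 fell in Mixed Het. Over all genes 26.4% were higher and 11.6% lower in C57, and 30.7% and 13.5% in Mixed. Eif4ebp1, a brake on cap-dependent translation, rose by 1.14 and 1.16, and the stress protein Nupr1 by 0.81 and 0.72. Bbc3, which encodes the cell death protein PUMA, fell by 0.70 and 0.81. Ero1a, an oxidase of the endoplasmic reticulum, rose in C57 (0.96, adjusted p = 2.2e-05) and differed by 0.26 (adjusted p = 0.128) in Mixed, and its interaction was -0.70 (adjusted p = 0.0326). The interaction was lost in 12 of 35 alternatives. These included leaving out any 1 of C57 WT mice 1 and 5, C57 Het mice 5 and 6, Mixed WT mice 1 and 2 and Mixed Het mice 2 and 5 (-0.69 to -0.60, adjusted p from 0.0535 to 0.0633). The Mixed difference of Ero1a passed without Mixed WT mouse 1 (0.37, adjusted p = 0.0343). With the acinar score as a covariate Nupr1 differed by 0.34 (adjusted p = 0.224) and 0.36 (adjusted p = 0.13).

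The IRE1 and ATF6 arms, the other branches of the unfolded protein response, had 7 of 14 genes higher and 0 lower in C57 Het, and 4 higher and 2 lower in Mixed Het. Over all genes 26.4% were higher and 11.6% lower in C57, and 30.7% and 13.5% in Mixed. The Mixed counts of this list are thus shares like those of all genes. Ern1, the IRE1 sensor, rose by 0.96 and 0.74, Atf6 by 0.61 and 0.41, and the chaperone Dnajb9 by 0.62 and 0.52. Sel1l, of the degradation machinery, rose in C57 (0.50, adjusted p = 0.00177) and differed by 0.21 (adjusted p = 0.13) in Mixed. The genes that fell in Mixed Het were Hspa5 (-0.49, adjusted p = 0.0352), the main chaperone BiP, and Xbp1 (-0.31, adjusted p = 0.00233). The Mixed call of Hspa5 was lost in 12 of 36 alternatives. These included leaving out any 1 of Mixed WT mice 2 and 3 and Mixed Het mice 1, 2, 4 and 5 (-0.48 to -0.36, adjusted p from 0.0578 to 0.129). The Mixed call of Atf6 was lost in 8 of 36 alternatives, among them without Mixed WT mouse 4 (0.30, adjusted p = 0.0714). Between backgrounds this list stood higher in Mixed, in 11 of 14 genes among WT mice (median 0.60) and 8 of 14 among Het mice (median 0.50), with 0 lower in either, beside 6.3% and 13.3% of all genes higher. With the alpha cell score as a covariate limma called 0 of the 14 between the WT groups, with 9 at an unadjusted p under 0.05, and 8 between the Het groups. The median size over the 11 genes was 0.70 without and 0.53 with that score.

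**Figure D4:**
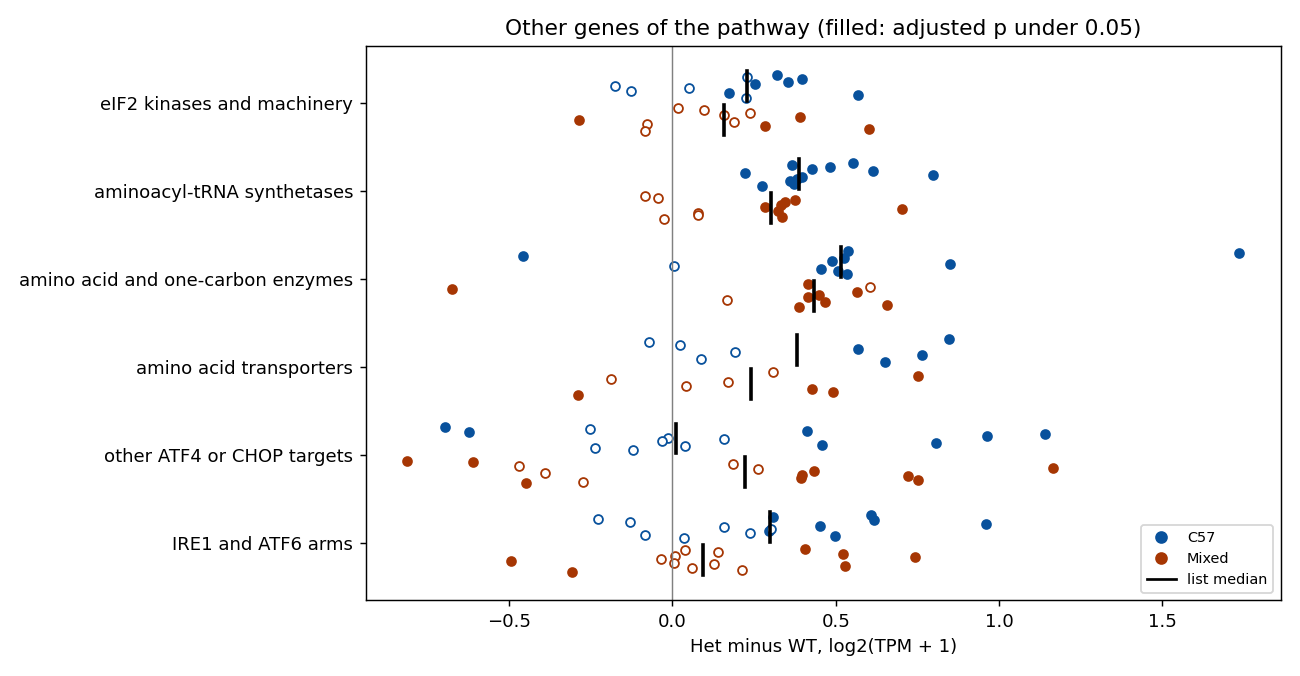
Het minus WT difference on the log2(TPM + 1) scale for the 69 tested genes of the 6 pathway lists, in C57 and Mixed, with 1 point per gene, filled where the adjusted p is under 0.05, and the list median as a black line. All aminoacyl-tRNA synthetases lie above 0 in C57, and the medians of that list are 0.39 and 0.30.

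With the alpha cell score as a covariate the 45 list genes called in C57 became 8 and the 38 in Mixed became 1, and with the acinar score they became 26 and 25. In the lists with 0 genes called lower in C57, 0 were lower at an unadjusted p under 0.05. The 8 were Aldh1l2, Eif4ebp1, Ero1a, Mthfd2, Slc1a4, Slc3a2, Slc7a1 and Slc7a5, and the 1 was Eif4ebp1, at 1.37 (adjusted p = 0.000992) in C57 and 1.58 (adjusted p = 0.0376) in Mixed. The median size over the lists together changed little: over the 45 genes the median difference in the direction called was 0.50 without and 0.48 with the score, 44 of the 45 keeping their sign, and over the 38 it was 0.44 in both fits, 37 keeping theirs. Single lists moved in both directions. In C57 the median went from 0.34 to 0.24 for the eIF2 kinases and machinery and from 0.70 to 0.99 for the other ATF4 or CHOP targets. The standard errors of the called genes grew, with a median of 0.12 without and 0.20 with the score in C57, and of 0.13 without and 0.33 with it in Mixed. The summed alpha markers do not overlap between the genotypes, and genotype and the alpha cell share of the RNA cannot be told apart for these genes.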

How the data were processed

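The authors deposited 1 table of TPM, per the file headers, with 22 value columns that each sum to 1000000; 0 columns were left unused. The submitters' processing notes name STAR 2.7.10b, MultiQC 1.7 and mm39; the counting tool and annotation are not given in the sources used here. TPM keeps no depth, so no counting interval was computed. Between 14812 and 16133 genes per library reached a TPM of 1.

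Genes that reached 1 TPM in 5 or more libraries were fitted on the log2(TPM + 1) scale, on which changes of low genes are understated, with limma 3.58.1 in R 4.3.3 (4 group means over 22 libraries, eBayes with trend). Adjusted p-values from limma are Benjamini-Hochberg values over all 16756 genes, with a threshold of 0.05. Each sets a group difference against the spread between mice within the 4 groups, with the mice taken as independent. Groups came from the genotype labels. Replicate numbers only name mice. The steps were tested on simulated data. RefSeq promoters on GRCm38.p6 were matched by symbol.

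The 10 genes and the lists were chosen with earlier results of these data known. The text names all 10, Mafa, and per list up to 4 genes with the smallest adjusted p in a genotype contrast or the interaction. For Asns and Ddit3 it names the 5 genes most correlated with each. Aars, Cbs, Eif2ak3, Eif2ak4, Eif2b2, Hspa5, Psph, Xbp1 and the genes that failed the filter were named after their values were seen. The alternatives were a pseudocount of 0.1, no filter or a mean TPM of at least 5, 3 other scalings, each contrast fitted alone, eBayes without trend, sample weights, marker or mitochondrial covariates, a threshold of 0.01, and each mouse left out. The alpha cell covariate was chosen after seeing the data. Some alpha cell markers are not reported here and do not enter its sum or score.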

Additional observations from a re-analysis of the deposited data

Results flagged for a closer look

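Among the 40 sets of values of 1 gene in 1 group, 2 held a mouse far from the others by Dixon's criterion, about the 1 in 20 that chance gives. Atf5 in Mixed Het mouse 4 was 141.9 TPM, the next value being 94.7 TPM. Phgdh in C57 Het mouse 4 was 18.3 TPM, the next being 30.5 TPM, and this mouse still lay above every C57 WT mouse.

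The effect of the genotype differed between the backgrounds, by the limma interaction, for Asns at -0.72 (adjusted p = 0.0248, SE 0.19), Atf5 at -1.18 (adjusted p = 0.0124, SE 0.27) and Ddit3 at -1.36 (adjusted p = 0.034, SE 0.38).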

How the results depend on the processing

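Most calls kept their direction and their side of the threshold. The log2 differences of Phgdh and Psat1 between genotypes kept theirs in all 36 alternatives in both backgrounds. Median-of-ratios scaling put the median difference of all genes at 0.0044 in C57, where the deposited values gave 0.08, and at -0.012 in Mixed, where they gave 0.10. TPM hides depth, so what sequencing depth limits is unknown.

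Of the 6 genes called in C57, 3 were called with the acinar score as a covariate, and leaving out each mouse gave 6 throughout. Of the 4 called in Mixed, 2 were called with the alpha cell score, and leaving out mice gave 3 to 4. The 3 interactions became 1 with no filter on low values, 1 with the immediate early score, 0 with the alpha cell score and 0 at the 0.01 threshold, both with 3 genes at an unadjusted limma p under 0.05, and 2 to 5 without single mice, the 5 without Mixed WT mouse 5. The 5 calls between WT groups became 3 with those mice fitted alone, 3 with the immediate early score, 2 at 0.01 and 0 with the alpha cell score (3 at an unadjusted limma p under 0.05), and 4 to 6 without single mice.

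The 45 list genes called in C57 became 26 with the acinar and 8 with the alpha cell score. The 38 in Mixed became 25 with the acinar score, 25 with the mitochondrial share and 1 with the alpha cell score. The 3 list interactions became 1 with no filter, 8 with median-of-ratios scaling, 7 with quantile normalization, 7 with a total without the most abundant genes, 12 with sample weights, 1 with the immediate early score, 9 with the mitochondrial share, 1 at 0.01, 1 with the alpha cell score, and 1 to 10 without single mice. They were 10 without Mixed WT mouse 5 and 1 without C57 WT mouse 5, C57 Het mouse 5 or 6, Mixed WT mouse 1 or 2, or Mixed Het mouse 2 or 5. They were 5 to 7 without C57 WT mouse 2 or 4, C57 Het mouse 3, Mixed WT mouse 4, or Mixed Het mouse 1 or 3. The 23 list genes called between WT groups became 12 with those mice alone, 14 with the acinar score, 14 at 0.01 and 1 with the alpha cell score, and 15 to 26 without single mice, the 15 without C57 WT mouse 5. The 16 between Het groups became 32 with sample weights. The cause of these moves was not tested.

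Some uncalled differences changed sign. In C57, Ddit3 was 0.21 with sample weights, 0.15 with the immediate early score, 0.087 with the mitochondrial share and -0.16 to 0.15 over the fits leaving out 1 mouse. Atf3 was -0.055 with the alpha cell score. Hspa5 was -0.035 with the mitochondrial share. Xbp1 was -0.057 with median-of-ratios scaling, -0.039 with quantile normalization, -0.076 with a total without the most abundant genes and -0.00021 to 0.077 over the fits leaving out 1 mouse. In Mixed, Chac1 was -0.0086 with the acinar score and -0.17 to 0.48 over the fits leaving out 1 mouse. Atf3 was -0.087 with median-of-ratios scaling, -0.12 with quantile normalization, -0.077 with a total without the most abundant genes, -0.13 with sample weights, -0.23 with the mitochondrial share, -0.61 with the alpha cell score and -0.22 to 0.20 over the fits leaving out 1 mouse. Atf4 was 0.00096 with the alpha cell score. Ppp1r15a was 0.18 with the immediate early score. Eif2ak1 was -0.11 with median-of-ratios scaling, -0.077 with quantile normalization, -0.10 with a total without the most abundant genes, -0.018 with sample weights, -0.033 with the acinar score, -0.050 with the mitochondrial share, -0.070 with the alpha cell score and -0.012 to 0.049 over the fits leaving out 1 mouse. Sars was -0.055 with median-of-ratios scaling, -0.055 with quantile normalization and -0.045 with a total without the most abundant genes. Ero1a was -0.043 with the mitochondrial share. Aars was 0.15 with the immediate early score and -0.23 to 0.0086 over the fits leaving out 1 mouse. Eif2ak4 was -0.22 with the alpha cell score. For the interaction, Atf3 was 0.24 with the immediate early score. Atf4 was 0.0056 with sample weights, 0.024 with the immediate early score, 0.012 with the alpha cell score and -0.16 to 0.035 over the fits leaving out 1 mouse. Ppp1r15a was -0.064 with the alpha cell score and -0.050 to 0.18 over the fits leaving out 1 mouse. Between WT groups, Atf4 was -0.028 with quantile normalization, -0.026 with a total without the most abundant genes, -0.014 with sample weights, -0.068 with the immediate early score, -0.064 with the alpha cell score and -0.079 to 0.12 over the fits leaving out 1 mouse. Atf5 was -0.026 to 0.33 over the fits leaving out 1 mouse. Ppp1r15a was -0.012 with the immediate early score. Between Het groups, Asns was -0.13 to 0.017 over the fits leaving out 1 mouse. Atf4 was -0.089 to 0.0024 over the fits leaving out 1 mouse.

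The setting that fits the mice of a contrast alone has no value for the interaction, which uses every mouse. No paired analysis was possible because the replicate numbers only name the mice and pair none across groups.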
